A study of Mus musculus with 47 samples.

Results

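Bulk RNA-seq of medullary thymic epithelial cells with high MHC class II (mTEChi) from newborn mice was examined for the effect of losing Aire, across all genes. The 8 libraries in this comparison, of 47 in the series, were 5 labelled Ctrl and 3 labelled AireKO, chosen by the age, cell type and genotype given with each sample. All came from C57BL/6 mice. The cells had been sorted as live CD45- EpCAM+ Ly51- MHC class II-high cells. The labels give the genotype as Ctrl or AireKO only, and neither the Aire allele nor what the Ctrl animals carried is described there. Ctrl libraries 1 and 2 came from males of 6 days, library 3 from females of 2 to 3 days, library 4 from males of 2 to 3 days, and library 5 from pooled animals of 1 day. AireKO library 1 came from pooled male and female animals of 4 days, library 2 from males of 6 days and library 3 from males of 4 days. Other neonatal mTEChi are used below where they bear on a result: 3 EEDcKO libraries, in which a floxed Eed gene was deleted by Foxn1-Cre, a driver active in thymic epithelium, and 3 AireEEDdKO libraries lacking both genes. The EEDcKO libraries came from females of 6 days, pooled animals of 2 to 3 days and pooled animals of 1 day. The AireEEDdKO libraries came from pooled animals of 4 days, males of 6 days and males of 4 days. Adult mTEChi of 4 AireKO libraries (males of 5 to 6 weeks) and 7 wild-type (WT) libraries (both sexes, 4 to 5 weeks) are used in the same way. So are 8 adult WT libraries of medullary cells with low MHC class II (mTEClo, both sexes, 4 to 5 weeks).

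Thymic epithelial cells of the medulla present peptides of the body's own proteins to developing T cells. Aire is a nuclear protein of mature medullary cells that raises the transcription of many genes otherwise restricted to single organs, and its loss in mice and people leads to autoimmune disease. Medullary cells also include small groups that resemble other tissues, such as muscle, tuft, ciliated, goblet and endocrine cells, called mimetic cells, and Aire is needed for part of their gene expression. In bulk libraries such as these, fewer cells of a type and less RNA per cell cannot be told apart.

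The total gene count was between 1646162 and 4025158 a library. Both genotypes held libraries of under 2500000 and libraries of over 2500000 counts, and the share of mitochondrial counts was 0.247 to 0.545% in Ctrl and 0.282 to 0.523% in AireKO. Within Ctrl, the libraries of under 2500000 counts were the 6-day ones and the deeper ones were of 1 to 3 days. Depth and age therefore cannot be told apart within Ctrl, and a subset by depth is there also a subset by age. Of 55471 genes listed, 44971 had at least 1 count and 20196 passed a filter on low counts. Values below are CPM, a gene's count relative to the size of its library after trimmed-mean (TMM) scaling, and changes are log2 fold changes of AireKO against Ctrl with a standard error (SE), from the quasi-likelihood test of edgeR with Benjamini-Hochberg adjustment. A gene is called higher or lower at an adjusted p below 0.05 and a change of at least 2-fold.

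Aire itself (chr10:78030022-78043610) was measured at 750.4, 801, 505, 460.1 and 551 CPM in Ctrl and 114, 44.4 and 51.6 CPM in AireKO. Every AireKO library lay below every Ctrl library (log2 fold change -3.15, SE 0.47, adjusted p = 4.9e-05), and reads over the gene remained in AireKO. Eed, the subunit of polycomb repressive complex 2 deleted in other groups of the series, was at 28.9 ± 7.86 CPM in Ctrl and 39.2 ± 7.49 CPM in AireKO and was not called (adjusted p = 0.09).

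Without Aire, 2593 genes were lower and 718 were higher among the 20196 tested, which is 12.8% and 3.56%, or 16.4% in either direction. The labels do not say how many animals each library holds, so p-values measure only the spread between these libraries. The lower genes had a median log2 fold change of -2.5 and the higher genes one of 1.30, beside 0.03 over all genes tested. Among the lower genes, 312 had no count in any AireKO library, 927 kept under 10% of their Ctrl mean, 762 kept 10 to 25% and 904 kept 25% or more. Among the higher genes, 64 rose at least 4-fold. The lower genes together made up 4.43% of CPM in Ctrl and 0.930% in AireKO, and the higher genes 2.78% and 5.64%. The Ctrl and AireKO libraries did not overlap in 91.8% of the lower and 91.6% of the higher genes, beside 17.5% of all genes tested that lay apart on the lower side and 16.7% on the higher side. Scaling by library size alone gave 366 higher and 3063 lower genes, so the split between the directions depends on the scaling. Within the libraries of under 2500000 counts (2 Ctrl and 2 AireKO) 761 genes were lower and 225 higher, within the deeper ones (3 Ctrl and 1 AireKO) 827 were lower and 162 higher, and with the depth class as a term in the fit 2501 were lower and 648 higher.

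**Figure D1:**
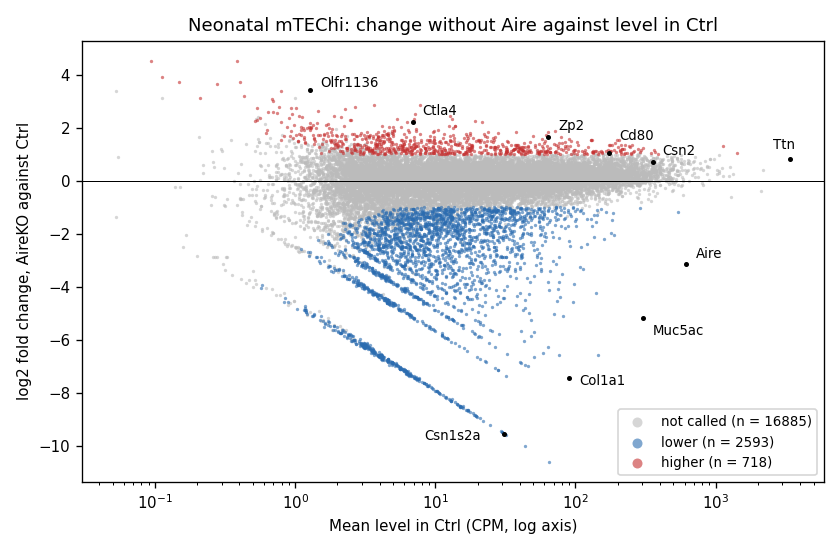
Log2 fold change of AireKO against Ctrl (vertical axis) against mean Ctrl level in CPM (horizontal log axis), each point 1 tested gene, coloured by call. The lower genes reach far larger changes than the higher genes. The diagonal streaks are genes with few or no counts in AireKO, whose fitted values depend on the prior count and are no bound.

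The number of genes seen in a library also fell. At an equal depth of 1646162 counts a library, reached by rarefaction, Ctrl libraries were expected to hold 28823, 29036, 29817, 29555 and 29403 genes with at least 1 count, and AireKO libraries 24687, 24400 and 25628. The means were 29327 ± 399 (SD, n = 5) and 24905 ± 642 (SD, n = 3), a difference of -4422 (exact permutation test, two-sided, p = 0.018, the smallest p that 56 regroupings allow). The share of lower genes depended on their level. At 3 to 10 CPM in Ctrl, 23.6% of tested genes were lower, whereas at 100 CPM or more 1.21% were. Below that range the share was smaller again, 9.38% at 1 to 3 CPM and 1.79% under 1 CPM. The Ctrl level is itself part of the fold change, and the filter on low counts bears on these shares too.

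**Figure D2:**
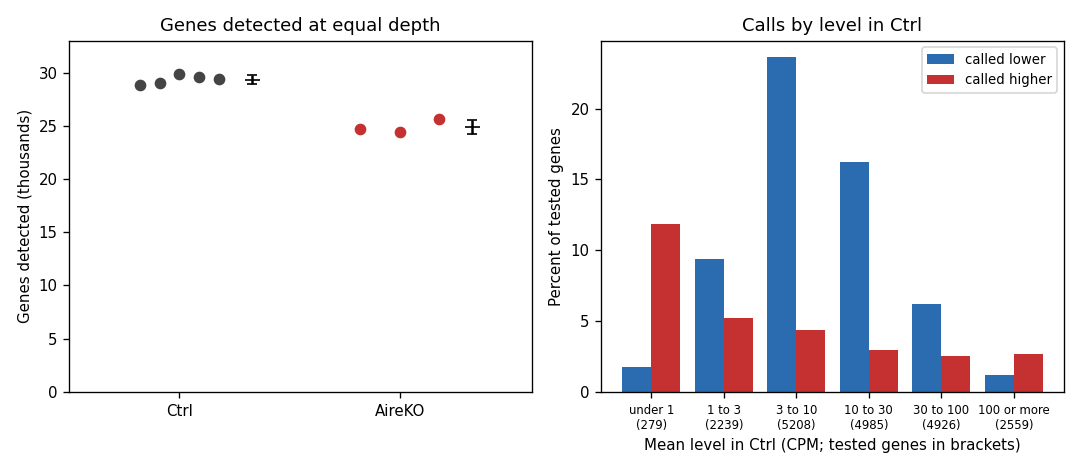
Left, genes with at least 1 count in each library after rarefaction to equal depth, with the mean and SD beside the points; all 3 AireKO libraries lie below the 5 Ctrl libraries. Right, percent of tested genes called lower or higher by mean Ctrl level, with the number of tested genes in brackets; the lower share peaks at 3 to 10 CPM.

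Protein-coding genes made up 91.9% of the lower genes and 57.7% of the higher genes, beside 79.7% of genes tested. Of tested lincRNAs, long RNAs without a coding frame lying between genes, 11.9% were higher and 7.66% lower. Antisense transcripts were 6.73% higher and 4.41% lower, and since the counting ignored strand their reads cannot be told apart from those of the gene on the other strand.

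The largest falls were found in genes of many organs. They were taken from called genes whose libraries did not overlap, whose mean reached 10 CPM in one group and exceeded 3 counts in the other. Muc5ac, the gel-forming mucin of airway and stomach surface cells, was measured at 309, 323, 308, 306 and 273 CPM in Ctrl and 2.72, 5.46 and 12.9 CPM in AireKO. No AireKO library came near the Ctrl range (log2 fold change -5.19, SE 0.75, adjusted p = 3.8e-05). Col2a1, the collagen of cartilage, was measured at 37.9, 35.5, 43.9, 42.9 and 57.6 CPM in Ctrl and 0, 2.73 and 1.68 CPM in AireKO (log2 fold change -4.81, SE 0.53, adjusted p = 1.9e-06). Gatm, which makes the creatine precursor guanidinoacetate, was measured at 65.8, 78.5, 56.7, 86.9 and 66 CPM in Ctrl and 2.72, 0.683 and 2.52 CPM in AireKO. Cacna2d2, a calcium channel subunit, was measured at 109, 91.1, 91.9, 95.3 and 94.3 CPM in Ctrl and 4.08, 4.1 and 3.92 CPM in AireKO, and its AireKO libraries lay close to each other. Nidogen 1 (Nid1), a basement membrane protein, had the smallest p of these lower genes and was measured at 114, 112, 139, 157 and 177 CPM in Ctrl and 8.15, 8.2 and 6.44 CPM in AireKO (log2 fold change -4.25, SE 0.31, adjusted p = 3.4e-08). Sparc, a matrix-binding glycoprotein, was at 77.8 ± 12.9 CPM in Ctrl and 4.55 ± 3.84 CPM in AireKO (n = 5 and 3), and the groups did not overlap (log2 fold change -4.38, SE 0.36, adjusted p = 8.6e-08).

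The largest rises were smaller and several were unannotated or little-studied transcripts. Gm5086 was measured at 10.0, 12.6, 4.09, 4.19 and 7.66 CPM in Ctrl and 52.3, 66.3 and 42.3 CPM in AireKO (log2 fold change 2.86, SE 0.40, adjusted p = 4.6e-05). Myot, which encodes the muscle Z-disc protein myotilin, was measured at 10.6, 12.6, 14.2, 9.16 and 17.2 CPM in Ctrl and 80.2, 66.3 and 66.1 CPM in AireKO. Stac, an adaptor of calcium channels, was measured at 15.1, 16.6, 12.5, 8.38 and 12.8 CPM in Ctrl and 70.0, 68.3 and 55.2 CPM in AireKO (log2 fold change 2.33, SE 0.31, adjusted p = 1.6e-05). For both Myot and Stac, the 3 AireKO libraries lay above all 5 Ctrl libraries. Gabra4, a subunit of the receptor for the transmitter GABA, was measured at 8.93, 6.87, 4.09, 7.07 and 8.13 CPM in Ctrl and 33.3, 34.2 and 37 CPM in AireKO. Adora3, an adenosine receptor, was measured at 2.79, 1.72, 1.36, 1.31 and 3.48 CPM in Ctrl and 12.2, 9.56 and 12.6 CPM in AireKO. Iqsec1, an exchange factor for small GTPases, had the smallest p of the higher genes chosen by the same rule, at 183, 182, 169, 169 and 193 CPM in Ctrl and 423, 355 and 380.2 CPM in AireKO (log2 fold change 1.11, SE 0.10, adjusted p = 1.3e-07).

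Genes with which mTEChi present antigen and signal to T cells were examined next. Of 14 tested MHC class II presentation genes, 2 were higher and 0 lower, with a median log2 fold change of 0.69, beside 3.56% higher and 12.8% lower over all genes tested. Within the shallower libraries alone, 0 of these class II genes were higher. H2-Oa, a chain of the peptide-exchange inhibitor H2-O, was measured at 26.2, 34.9, 31.1, 19.6 and 36.5 CPM in Ctrl and 93.1, 74.5 and 65.3 CPM in AireKO (log2 fold change 1.38, SE 0.33, adjusted p = 0.0037). Its partner H2-Ob was at 63.7 ± 6.67 CPM in Ctrl and 147 ± 29.7 CPM in AireKO, a call that was lost without AireKO library 2 (0.99, adjusted p = 0.065). Cd74, the invariant chain that guides class II molecules, was at 639.6 ± 207 CPM in Ctrl and 1114 ± 380.4 CPM in AireKO with overlapping libraries, and its change of 0.80 on the log2 scale was under the 2-fold limit (adjusted p = 0.025). Of 13 costimulation and checkpoint genes, 4 were higher and 1 lower. Cd80, the ligand of CD28 and CTLA-4, was measured at 170.2, 182, 174, 158 and 186 CPM in Ctrl and 379.8, 398 and 297 CPM in AireKO. The AireKO libraries lay above all Ctrl libraries (log2 fold change 1.04, SE 0.31, adjusted p = 0.014), but the change is close to the 2-fold limit. It fell below the limit with DESeq2 (0.99) and without Ctrl library 1, 3 or 4 or AireKO library 2 (0.91 to 0.98). Other alternatives also took it below, among them library size alone (0.82), age as a term (0.93) and depth class as a term (0.94). With sex as a term it stayed above (1.13). Ctla4, the inhibitory receptor for CD80, rose from a low level, at 3.91, 6.87, 11.2, 4.98 and 7.43 CPM in Ctrl and 42.1, 34.8 and 23.8 CPM in AireKO (log2 fold change 2.23, SE 0.47, adjusted p = 0.0013). Tnfsf4, the OX40 ligand, went the other way, at 2.79, 7.45, 14.5, 13.9 and 11.6 CPM in Ctrl and 1.36, 0 and 0.841 CPM in AireKO. Both 6-day Ctrl libraries were the lowest for Tnfsf4, and its call was lost within the shallower libraries (-2.83, adjusted p = 0.2). The 14 tested thymic chemokine genes gave 4 lower and 0 higher, with a median log2 fold change of -0.84. Cxcl12 was measured at 14.5, 10.9, 71.5, 144 and 86.4 CPM in Ctrl and 5.44, 4.1 and 8.13 CPM in AireKO. The Ctrl libraries spanned a wide range in which both 6-day libraries were the lowest, and each AireKO library lay below them (log2 fold change -3.41, SE 0.73, adjusted p = 0.0015). The call was lost with male libraries only (-3.22, adjusted p = 0.061), and the change itself was smaller with 6-day male libraries only (-1.61, adjusted p = 0.5) and within the shallower libraries (-1.41, adjusted p = 0.35). Of 15 NF-kB receptor and regulator genes, 1 was higher, and none of 18 Aire partner genes, 12 polycomb repressive complex 2 genes, 15 basal genes or 30 cell-division genes was called. Mki67, the proliferation marker, was at 453 ± 82 CPM in Ctrl and 639 ± 60.0 CPM in AireKO and was not called (adjusted p = 0.13).

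Most tested genes of the interferon response were lower. Interferons are antiviral signals that induce a shared set of defence genes. Of 25 tested interferon-stimulated genes, 16 were lower and 0 higher, with a median log2 fold change of -1.32, beside 12.8% lower over all genes tested. Within the shallower libraries alone, 7 of the list were lower and 0 higher. Rsad2, an antiviral enzyme, was measured at 57.5, 59, 63, 82.2 and 99.2 CPM in Ctrl and 7.47, 8.2 and 8.69 CPM in AireKO. The groups did not overlap (log2 fold change -3.14, SE 0.27, adjusted p = 1.3e-07). Ifit3, another interferon-stimulated gene of the list, was measured at 10.0, 14.9, 22.6, 34.6 and 20.4 CPM in Ctrl and 0, 1.37 and 2.24 CPM in AireKO (log2 fold change -3.79, SE 0.66, adjusted p = 0.00022). Both 6-day Ctrl libraries were the lowest Ctrl libraries for Rsad2 and Ifit3, and each AireKO library lay below them. Oasl2, an oligoadenylate-synthetase-like gene and the highest of the list, was measured at 254, 278, 259, 350.4 and 290.3 CPM in Ctrl and 137, 147 and 135 CPM in AireKO (log2 fold change -1.04, SE 0.14, adjusted p = 2.5e-05). The change of Oasl2 was -0.91 within the shallower libraries, under the 2-fold limit. Irf7, a transcription factor that drives interferon production, was lower as well, at 58.3 ± 13.8 CPM in Ctrl and 21.7 ± 5.75 CPM in AireKO. The call of Irf7 was lost within the shallower libraries (-1.09, adjusted p = 0.082). Irf7, and Isg15 below, were picked after their values were seen. The summed CPM of the list was 1548 to 2038 in Ctrl and 907 to 1007 in AireKO. The Oas genes lie side by side on chromosome 5 and 9 of them, with Rph3a beside them, formed a run of 10 neighbouring lower genes, picked out after the values were seen, though reads from near-identical Oas copies could be split between them.

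Interferon-stimulated genes often carry a site for interferon-regulated factors, and the promoters of 2 lower list members, Ifit3 and Rsad2, are shown with that of Isg15, a list member that was not called (-1.32, adjusted p = 0.061) but was called lower with DESeq2 (-1.42, adjusted p = 0.028). The letters searched were GAAA, any 2 bases and GAAA again, or on the other strand TTTC, any 2 bases and TTTC, in the 250 bases before the RefSeq start, with overlapping matches counted. They are in capitals below, the sequences run up to the base before the start, and come from RefSeq on GRCm38.p6 (chr19:34583359-34583528, plus strand; chr12:26456453-26456592, minus strand; chr4:156200819-156200918, minus strand).
Ifit3: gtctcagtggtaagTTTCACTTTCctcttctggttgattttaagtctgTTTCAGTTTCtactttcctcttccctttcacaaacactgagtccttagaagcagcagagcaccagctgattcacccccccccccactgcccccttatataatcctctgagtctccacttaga
Rsad2: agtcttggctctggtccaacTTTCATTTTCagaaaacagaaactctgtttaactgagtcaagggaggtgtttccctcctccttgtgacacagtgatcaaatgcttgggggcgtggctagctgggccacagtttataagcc
Isg15: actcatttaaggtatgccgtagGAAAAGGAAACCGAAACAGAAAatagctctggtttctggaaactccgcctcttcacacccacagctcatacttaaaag
Of list members with a promoter sequence, 7 of 13 lower genes and 3 of 5 genes that were not called held the letters, beside 2.7% of the 12550 tested protein-coding genes with a sequence. A match describes the sequence only.

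Genes of mimetic cells were lower in part, and are given beside 12.8% lower and 3.56% higher over all genes tested. Of 22 ciliated-cell genes tested, 17 were lower, with a median log2 fold change of -2.04. Mcidas, a regulator of multiciliated cells, was measured at 35.1, 22.9, 21.3, 20.9 and 33.2 CPM in Ctrl and 0.679, 0 and 0 CPM in AireKO and was called lower (adjusted p = 4.6e-05). Trp73, a transcription factor also needed for multiciliated cells, was measured at 12.8, 16, 13.9, 16.8 and 15.1 CPM in Ctrl and 0.679, 0.683 and 0.841 CPM in AireKO (log2 fold change -4.22, SE 0.36, adjusted p = 1.3e-07). Dnah9, a dynein of cilia and the highest of the list, was reduced less, at 142 ± 12 CPM in Ctrl and 67.6 ± 12.7 CPM in AireKO (log2 fold change -1.09, SE 0.18, adjusted p = 0.00016). Endocrine genes gave 11 lower and 1 higher of 17. Sst, which encodes somatostatin, was measured at 29, 42.4, 22.1, 28.8 and 38.1 CPM in Ctrl and 0 CPM in each of the 3 AireKO libraries, at least 19.5-fold lower. Ins2, the insulin gene expressed in thymus, was measured at 9.48, 6.3, 8.73, 7.59 and 5.34 CPM in Ctrl and 0 CPM in each of the 3 AireKO libraries, at least 4.56-fold lower. Here and below such lower bounds compare the Ctrl mean with a floor of 3 counts in each AireKO library. Insm1, a transcription factor of endocrine progenitors, rose instead, at 139, 166, 93, 89.8 and 94.1 CPM in Ctrl and 285, 279 and 213 CPM in AireKO (log2 fold change 1.17, SE 0.35, adjusted p = 0.017). The call of Insm1 was lost without any one of Ctrl libraries 3 and 4 and AireKO libraries 1 and 2 (adjusted p = 0.066, 0.069, 0.056 and 0.084).

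Goblet and secretory genes gave 9 lower and 1 higher of 14, beside 12.8% lower and 3.56% higher over all genes tested. Fcgbp, a mucus protein and the highest gene of the list, was measured at 1815, 1852, 1145, 1102 and 1216 CPM in Ctrl and 3677, 3294 and 1839 CPM in AireKO (log2 fold change 1.04, SE 0.30, adjusted p = 0.011), and AireKO library 3 lay within the Ctrl range. With DESeq2 the change of Fcgbp was 0.99, below the 2-fold limit, as it was without Ctrl library 3, 4 or 5 or AireKO library 1 or 2 (0.86 to 0.99). Other alternatives also took it below, among them library size alone (0.82), age as a term (0.92) and depth class as a term (0.85). Tuft genes gave 6 lower of 17, enterocyte genes 8 of 23 and cornified keratinocyte genes 7 lower and 1 higher of 19. Ionocyte genes gave 3 lower of 7 and muscle genes 7 of 26. Of 9 microfold-cell genes, 1 was higher and 0 lower. Within the shallower libraries alone, the tuft and ionocyte lists had 0 lower genes and the microfold list 0 higher. The enterocyte list had 2 lower genes there, the cornified keratinocyte list 2 and the muscle list 3. Foxi1, a transcription factor of ionocytes, was measured at 12.3, 12, 14.5, 25.9 and 12.5 CPM in Ctrl and 2.72, 1.37 and 0.841 CPM in AireKO (log2 fold change -3.42, SE 0.81, adjusted p = 0.0034). The call of Foxi1 was lost within the shallower libraries (-2.55, adjusted p = 0.19). Ttn, which encodes the giant sarcomere protein titin and was the highest muscle gene, was at 3398 ± 1119 CPM in Ctrl and 6020.5 ± 1339.8 CPM in AireKO and was not called (0.83, adjusted p = 0.044), while Myh3, embryonic myosin heavy chain, was measured at 61.9, 65.3, 49.1, 59.7 and 57.8 CPM in Ctrl and 0, 0.683 and 0.841 CPM in AireKO and was lower (adjusted p = 0.00027).

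**Figure D3:**
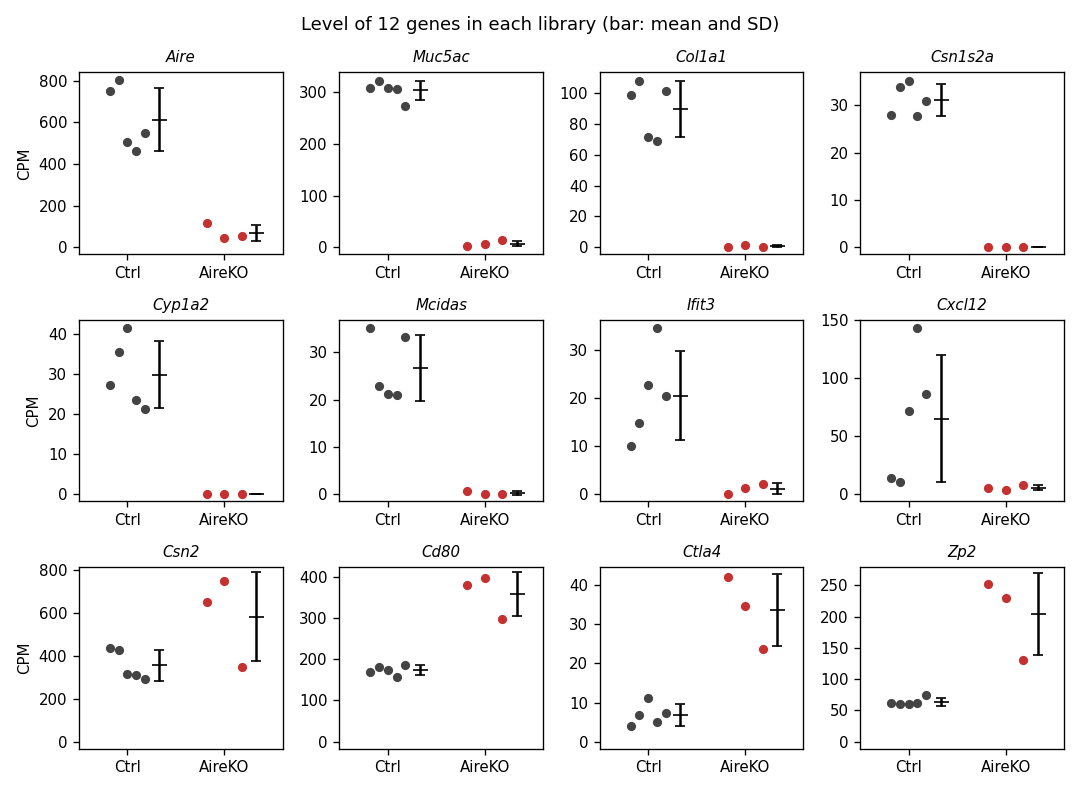
CPM of 12 genes in each library, with the mean and SD beside the points. Aire, Muc5ac, Col1a1, Csn1s2a, Cyp1a2, Mcidas, Ifit3 and Cxcl12 are lower in all 3 AireKO libraries, Cd80, Ctla4 and Zp2 are higher in all 3, and Csn2 overlaps between the groups.

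Lists of genes restricted to a single organ ranged from 11 lower of 12 to 1 lower of 5, beside 12.8% lower over all genes tested. The lists differed in how many of their genes passed the filter on low counts, with 11 testis, 10 seminal vesicle and prostate, 9 lens, 8 liver, 7 salivary and 7 retina genes left untested. Exocrine pancreas genes gave 11 lower of 12 tested, with 6 more untested. Ctrb1, a chymotrypsinogen, was measured at 24, 13.7, 20.7, 14.9 and 27.2 CPM in Ctrl and 0.679, 0.683 and 0.28 CPM in AireKO and was lower (adjusted p = 0.0003). Stomach genes gave 8 lower of 10 tested. Pgc, the precursor of the pepsin-like enzyme gastricsin, was measured at 53.6, 47, 40.9, 37.2 and 63.9 CPM in Ctrl and 2.72, 0.683 and 0 CPM in AireKO (log2 fold change -5.85, SE 0.75, adjusted p = 1.1e-05). Tooth, bone and cartilage genes gave 12 lower of 15. Acan, the cartilage proteoglycan aggrecan, was measured at 31.2, 25.2, 36.8, 29.9 and 26.7 CPM in Ctrl and 0 CPM in each of the 3 AireKO libraries, at least 18.2-fold lower. Amtn, the enamel protein amelotin, was measured at 20.1, 17.8, 27.3, 15.7 and 29 CPM in Ctrl and 0 CPM in each of the 3 AireKO libraries, at least 13.4-fold lower. Liver plasma protein genes gave 10 lower and 2 higher of 20. Fgb, the beta chain of fibrinogen, was measured at 12.8, 14.3, 16.1, 15.7 and 17 CPM in Ctrl and 0 CPM in each of the 3 AireKO libraries, at least 9.24-fold lower.

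Of 7 tested milk protein genes, 3 were lower, 0 were higher and 4 were not called. Csn1s2a, an alpha casein, was measured at 27.9, 33.8, 35.2, 27.8 and 30.9 CPM in Ctrl and 0 CPM in each of the 3 AireKO libraries, at least 18.9-fold lower. Csn2, beta casein, was measured at 436, 427, 314, 308 and 289 CPM in Ctrl and 649.6, 747 and 348 CPM in AireKO, overlapped between the groups and was not called (log2 fold change 0.71, SE 0.40, adjusted p = 0.19). Oocyte genes also split, with 5 lower and 2 higher of 9 tested. Zp2, a protein of the egg coat, was measured at 61.9, 60.7, 59.5, 61.3 and 75 CPM in Ctrl and 253, 229.5 and 130.0 CPM in AireKO (log2 fold change 1.67, SE 0.32, adjusted p = 0.00062). Its relative Zp3 was measured at 15.1, 10.9, 17.5, 7.59 and 16.3 CPM in Ctrl and 0.679, 0.683 and 0.28 CPM in AireKO and was lower (adjusted p = 0.00021). Zp2 and Zp3 therefore lay on opposite sides. AireKO library 3 was the lowest of the AireKO libraries for both genes. Within the deeper libraries, of which 1 is AireKO, the change of Zp2 was 0.94, under the 2-fold limit.

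Nervous system genes gave 12 lower and 1 higher of 19, heart genes 7 lower of 11, salivary and lacrimal gland genes 6 of 8, lens genes 6 of 8, kidney genes 3 of 9, lung genes 3 of 6, testis germ cell genes 2 of 8, retina genes 4 lower and 1 higher of 16, seminal vesicle and prostate genes 1 of 5, and genes of the thyroid, pituitary, adrenal and parathyroid 7 of 18. The lung, testis germ cell and seminal vesicle and prostate lists had 0 lower genes within the shallower and within the deeper libraries taken alone. Th, tyrosine hydroxylase, the enzyme that starts dopamine synthesis, was measured at 12.3, 8.59, 12.3, 11.3 and 20.7 CPM in Ctrl and 0 CPM in each of the 3 AireKO libraries, at least 7.92-fold lower. Lrp2, the kidney tubule receptor megalin, was measured at 103, 77.9, 80.7, 71.7 and 64.1 CPM in Ctrl and 7.47, 5.46 and 7.29 CPM in AireKO (log2 fold change -3.52, SE 0.55, adjusted p = 7.8e-05). Pomc, the precursor of ACTH, was measured at 53.6, 48.7, 37.6, 38.8 and 52.7 CPM in Ctrl and 0.679, 3.42 and 0.841 CPM in AireKO (log2 fold change -4.98, SE 0.53, adjusted p = 1.7e-06).

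Proteins that are autoantibody or T cell targets in Aire deficiency gave 10 lower of 16 tested, beside 12.8% lower over all genes tested. Cyp1a2, a liver cytochrome P450, was measured at 27.3, 35.5, 41.5, 23.6 and 21.4 CPM in Ctrl and 0 CPM in each of the 3 AireKO libraries, at least 18.2-fold lower. Gad1, the enzyme that makes GABA, was reduced but still present, at 77, 76.8, 79.1, 63.1 and 62.7 CPM in Ctrl and 27.9, 28 and 14.9 CPM in AireKO (log2 fold change -1.66, SE 0.27, adjusted p = 0.00012).

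**Figure D4:**
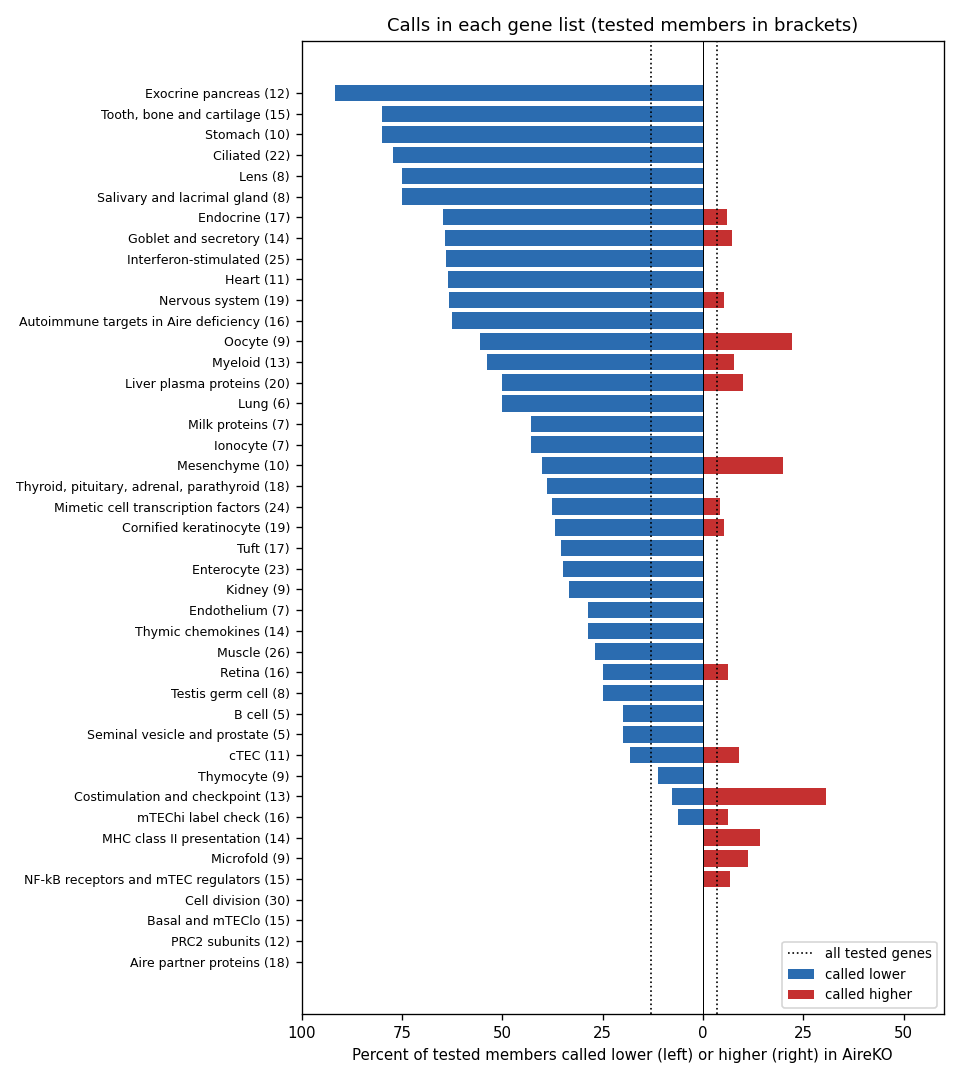
Percent of tested members of each list called lower (left) or higher (right) in AireKO, with the number tested in brackets and dotted lines at the shares over all genes tested, 12.8% and 3.56%. The exocrine pancreas, stomach, ciliated and tooth, bone and cartilage lists stand farthest to the left.

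All 10 tested genes of the Bpi fold family, secreted proteins of the airway and mouth, were lower, and so were 18 of 23 kallikreins. So were 22 of 46 keratins, 22 of 44 collagens (with 3 higher), 13 of 25 Hox genes and 7 of 13 mucins. Potassium channel genes gave 22 lower and 2 higher of 77. The shares over all genes tested were 12.8% lower and 3.56% higher. The Bpi fold genes are neighbours on chromosome 2, at chr2:153875045-154320646, and the run had a median log2 fold change of -4.96. Bpifb3 was measured at 21.2, 19.5, 28.1, 25.7 and 28.1 CPM in Ctrl and 0 CPM in each of the 3 AireKO libraries, at least 14.9-fold lower. Of 24 tested replication-dependent histone genes, 7 were higher and 0 lower. Of 79 ribosomal protein genes 4 were higher and 0 lower, a share near the 3.56% over all genes tested, and no proteasome gene of 39 was called. Members of the kallikrein, olfactory receptor and major urinary protein families have near-identical copies, so their single values are uncertain. Of the 2382 lower protein-coding genes, 46.0% had a lower gene next to them among tested coding genes, beside 22.9% of the other tested coding genes. Of 414 higher coding genes 24.9% had a higher one next to them, beside 4.48% of the others.

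The promoters of the lower genes differed in base composition. Over 300 bases around the RefSeq start (250 before, 50 after), the median ratio of observed to expected CpG was 0.385 in lower, 0.563 in higher and 0.748 in uncalled coding genes with a sequence. The letters TATAAA, starting 45 to 20 bases before the start on the gene's strand, were found in 6.29% of lower, 2.62% of higher and 1.54% of uncalled coding genes, beside 2.23% of those tested. Cyp1a2 (chr9:57683656-57683715, minus strand) and Pgc (chr17:47726782-47726841, plus strand) are shown as lower genes with the letters, in capitals.
Cyp1a2: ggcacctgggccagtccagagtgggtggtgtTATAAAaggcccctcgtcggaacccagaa
Pgc: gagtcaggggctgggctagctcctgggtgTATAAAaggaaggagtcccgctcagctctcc

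Markers of cells other than epithelium were measured in the same libraries, and their calls stand beside 12.8% lower and 3.56% higher over all genes tested. The summed CPM of the myeloid list was 456 to 533 in Ctrl and 333 to 474 in AireKO, with 7 of 13 tested genes lower and 1 higher. Adgre1, the macrophage marker F4/80, was measured at 37.9, 26.4, 63.3, 53.9 and 42.7 CPM in Ctrl and 3.4, 3.42 and 3.64 CPM in AireKO (log2 fold change -3.67, SE 0.53, adjusted p = 3.4e-05). The mesenchyme list summed to 452 to 491 CPM in Ctrl and 352 to 450 in AireKO, with 4 lower and 2 higher of 10. Col1a1, the main collagen of connective tissue, was measured at 99.3, 108, 71.5, 69.1 and 101 CPM in Ctrl and 0, 1.37 and 0.28 CPM in AireKO and was lower (adjusted p = 9.5e-06), while Dcn, decorin, a connective tissue proteoglycan, was measured at 58, 64.7, 58.7, 51.3 and 77.1 CPM in Ctrl and 214, 239 and 162 CPM in AireKO and was higher (log2 fold change 1.72, SE 0.18, adjusted p = 1.7e-06). Endothelial genes summed to 158 to 192 and 168 to 200 CPM, thymocyte genes to 115 to 133 and 72.7 to 108 CPM, and B cell genes to 67.0 to 88.4 and 79.9 to 93.0 CPM. No gene of these lists was at 0 in all 8 libraries, and the part of such cells in the results was not tested. Genes of cortical thymic epithelium gave 2 lower and 1 higher of 11.

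The same contrast was available in libraries that were in neither group above, although the neonatal fit shares 1 estimate of the spread. Both Aire-deficient neonatal groups were of 4 and 6 days, and no Ctrl or EEDcKO mTEChi library was of 4 days. Age and genotype are therefore partly confounded in both neonatal contrasts. With age as a term in the fit, AireKO against Ctrl gave 3109 calls, of which 2964 were shared. With EED absent, AireEEDdKO libraries were set against EEDcKO libraries, where 8.36% of genes were lower and 4.99% higher. Of the 2593 genes lower without Aire, 1215 (46.9%) were lower there and 7 were higher, with a median log2 fold change of -1.48, and these 1215 make up 71.9% of the lower genes of that contrast. Of the 718 higher genes, 343 (47.8%) were higher there, 34.1% of the higher genes of that contrast. In adult mTEChi, where 18.3% of genes were lower and 5.09% higher, 1917 of 2345 lower genes tested (81.7%) were lower, with a median of -2.52, and 275 of 649 higher genes (42.4%) were higher. The adult mTEChi AireKO libraries had no mitochondrial count whereas every adult WT library had some, and the reason was not tested. Genotype and any difference in how these libraries were made or counted therefore cannot be told apart in adult mTEChi. Between adult WT mTEChi and the less mature mTEClo, in which MHC class II is low, 23.8% of genes were higher and 12.3% lower in mTEChi. Of the neonatal lower genes tested there, 58.8% were higher in mTEChi and 14.9% lower, and of the higher genes 58.6% and 2.31%.

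**Figure D5:**
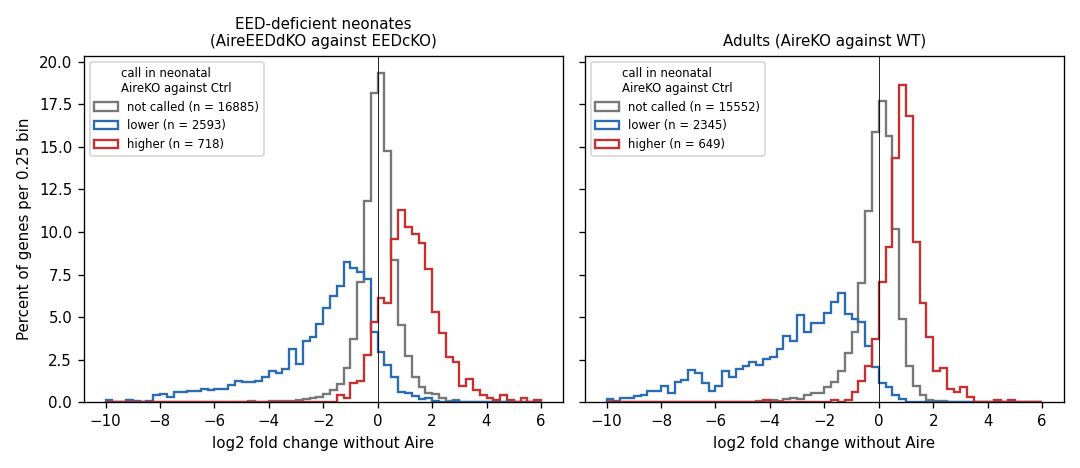
Log2 fold change without Aire in EED-deficient neonates (left) and adults (right), as percent of genes per bin of 0.25, for genes called lower, higher or not called in neonatal AireKO against Ctrl; values beyond -10 and 6 are drawn at the ends. The lower genes lie mainly left of 0 and the higher genes mainly right of 0 in both.

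The effect of Aire loss differed between EED-sufficient and EED-deficient mTEChi for 253 genes (1.25%; interaction term, adjusted p below 0.05 and at least 2-fold), with a positive difference in 90 (0.446%) and a negative one in 163 (0.807%). This count went from 43 without AireEEDdKO library 1 to 530 without EEDcKO library 1. The genes described next were chosen as having the smallest p of this difference, so their values are a description. Ryr2, the calcium release channel of heart muscle, was measured at 90.9, 76.8, 92.8, 65.7 and 58.1 CPM in Ctrl and 13.6, 23.9 and 15.1 CPM in AireKO and was lower (log2 fold change -2.15, SE 0.20, adjusted p = 4.6e-07). In the EED-deficient background it was at 53.5 ± 4.01 CPM in EEDcKO and 57.5 ± 6.18 CPM in AireEEDdKO, and the effects differed (difference of the log2 fold changes -2.25, SE 0.28, adjusted p = 0.00074). Mef2c, a transcription factor of muscle and nerve, was at 9.3 ± 1.4 CPM in Ctrl and 3.84 ± 2.75 CPM in AireKO and at 29 ± 6.94 CPM in EEDcKO and 75.9 ± 13.4 CPM in AireEEDdKO (difference of the log2 fold changes -2.67, SE 0.36, adjusted p = 0.0016). Bax, which promotes cell death, was higher without Aire, at 26 ± 4.12 CPM in Ctrl and 62.5 ± 11.6 CPM in AireKO, and was at 49.6 ± 6.18 CPM in EEDcKO and 53.5 ± 11.5 CPM in AireEEDdKO (difference of the log2 fold changes 1.16, SE 0.25, adjusted p = 0.026).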

How the data were processed

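RNA was measured by full-length total RNA-seq of sorted cells. The authors deposited raw read counts per Ensembl gene. Per the study's methods and the submitters' processing notes, reads were trimmed when necessary, cleaned with fastp 0.20.0 and aligned to mm10 (GRCm38) with STAR 2.7.3a, low mapping qualities were removed with SAMtools 1.9 and duplicates with Picard 2.21.1, and genes were counted with HTSeq 0.11.2 without strand; the annotation release is not given in the sources used here. Removing poorly mapping reads lowers the counts of near-identical genes. Authors' normalized values were not used.

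The counts were fitted with edgeR 4.0.16 (R 4.3.3; quasi-likelihood, TMM scaling, filterByExpr) over all neonatal libraries, which share 1 estimate of the spread, with no covariate, and the adult libraries in a separate fit. The interaction tested the Aire effect with EED against that without. Fits were tested on simulated data, in which 86% of 2-unit and 42% of 1-unit log2 rises and 70% of 2-unit and 22% of 1-unit log2 falls were recovered for neonatal AireKO against Ctrl. Recovery was counted at an adjusted p below 0.05 alone, without the 2-fold minimum that a call also requires. A bound for a gene without AireKO counts used 3 counts in each library, and covers counting error only. Gene symbols matched 99.57% of identifiers. Named genes were Aire, Eed, the largest changes and smallest p in each direction, the largest changes and highest gene of each list or family, and the smallest interaction p. The genes and lists were chosen with earlier results of these data known. Alternatives were other scalings, filters, covariates, subsets of libraries, DESeq2 1.42.0 and leaving out each library; those on depth were chosen after seeing the data.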

Additional observations from a re-analysis of the deposited data

Results flagged for a closer look

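Among Ctrl libraries, 4 of 58 genes named in the text had 1 library far from the others by Dixon's ratio of gap to range (limit 0.71 for 5 libraries; chance flags about 1 in 20). The ratio was 0.768 for Cacna2d2 (Ctrl library 1, 109 CPM), 0.825 for Foxi1 (library 4, 25.9 CPM), 0.722 for Mef2c (library 1, 11.7 CPM) and 0.842 for Zp2 (library 5, 75 CPM).

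The Aire effect differed between EED-sufficient and EED-deficient mTEChi for 7 of the 58 named genes, beside 1.25% of all genes tested, by edgeR's interaction term, given as the difference of the log2 fold changes. It was 1.16 for Bax (adjusted p = 0.026), -1.65 for Dnah9 (adjusted p = 0.0038), -2.67 for Mef2c (adjusted p = 0.0016), -2.02 for Nid1 (adjusted p = 0.026), -2.25 for Ryr2 (adjusted p = 0.00074), -2.61 for Sparc (adjusted p = 0.012) and -5.02 for Zp3 (adjusted p = 0.046). Ryr2, Mef2c and Bax had been named for a small p of this same term. Of the 58 genes, 52 were called in AireKO against Ctrl, and those libraries are part of the term, so the 1.25% is not a like comparator. Among all lower genes 4.17% had a negative and 0.0386% a positive difference. Among all higher genes 2.92% had a positive and 0.139% a negative difference.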

How the results depend on the processing

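No called gene named in the text changed direction under any alternative run, but of 52 such calls 39 were lost with 6-day male, 15 with shallow and 14 with deep libraries only. Of 2967 values of lists under alternatives, 588 moved. The 3311 calls (718 higher, 2593 lower) became 2035 (1538 lower) when 10 or more counts were required throughout 1 group, 2158 (316 higher) with male libraries only, 152 (50 and 102) with 6-day male libraries only, 986 (225 and 761) with shallow and 989 (162 and 827) with deep libraries only, and 5816 (2691 higher) with no minimum change. Subsets hold fewer samples, and the lone AireKO library of the deep subset is assumed to vary like the other groups. The shallow Ctrl libraries were also the 6-day ones. Library size alone gave 366 higher genes, 10.7% of calls against 21.7%, and moved the median of all genes by -0.208. Leaving out 1 library gave 2548 to 3312 calls, 2068 to 2638 lower and 421 to 736 higher (421 without Ctrl library 4 and 465 without AireKO library 2). In EED-deficient mTEChi 2696 calls became 4544 with no minimum change and 1884 to 3011 without 1 library. The 253 interaction calls became 393 with only the 14 mTEChi libraries, 388 with DESeq2, and 43 to 530 without 1 library. Without the filter on low counts, coding genes were 86.4% of lower and 51.5% of higher genes. The cause was not tested. Replicate numbers did not pair the samples (correlations -0.0643, 0.14 and 0.0608, and not every library correlated best with its own number); a fit with the replicate block gave 2778 calls, of which 2651 were shared. Depth limits genes near the floor of 3 counts.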
